A study of Mus musculus with 6 samples.

Results

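Peroxisome biogenesis genes and genes of peroxisomal lipid metabolism were followed in the brown adipose tissue (BAT) of mice after acute cold. BAT burns fuel to keep the body warm. The set was chosen by symbol from a fixed list of 32 genes, all of which were found among the 35976 genes of the count table. It holds 13 Pex genes and 19 enzymes and transporters. BAT was taken from 3 AKO mice, in which floxed Cars2 was deleted by Adiponectin-Cre, and from 3 wild-type (WT) controls. All 6 mice had spent 4 h at 4 °C. Cars2 encodes the mitochondrial cysteinyl-tRNA synthetase, and the comparison asks how its loss in fat cells alters gene expression of BAT in the cold. Adiponectin-Cre is active in adipocytes of every fat depot and not in the other cells of BAT, so only part of the cells that gave RNA could lose the gene. The labels call the controls WT, whereas the study's methods name its controls Flox, and age, sex and background strain are not given in the labels.

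Peroxisomes are small organelles that shorten very long-chain and branched fatty acids, make the first intermediates of ether lipids and remove hydrogen peroxide. Their enzymes are made in the cytosol and imported whole by the Pex proteins (peroxins), which also insert membrane proteins and divide the organelle. In brown fat, peroxisomes multiply during cold exposure, and their β-oxidation hands shortened acyl-CoA to mitochondria. Many of their genes are known targets of the PPAR family of nuclear receptors.

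Each library held between 6540619 and 8461685 counts, and the 32 genes together took 4.02 to 4.34 counts per 1000 in the AKO libraries and 5.16 to 5.68 in the WT libraries. Mitochondrially encoded genes took 23.0% to 28.6% of counts in AKO and 20.1% to 20.6% in WT. Levels are given as CPM, read counts brought to a common library size with TMM factors, for AKO replicates 1 to 3 and WT replicates 1 to 3. A log2 fold change compares AKO with WT (above 0: higher in AKO) and stands with its SE, the standard error of edgeR's quasi-likelihood fit to 13007 genes. A gene was called when its Benjamini-Hochberg adjusted p over all these genes was under 0.05. Cars2 itself was at 220, 248 and 132 CPM in AKO and 786, 459 and 632 CPM in WT, so its level went with the labels in every library. Ucp1, the uncoupling protein that defines brown fat, averaged 4654 ± 1659 CPM in AKO and 14912 ± 826 CPM in WT (SD, n = 3 each). Nothing in the labels says how the mice were spread over litters or days, so p-values measure the spread between these libraries.

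Most of the peroxisomal genes that changed in AKO BAT were lower, and the deepest fall was in Slc27a2, an acyl-CoA synthetase of very long-chain fatty acids. The Pex genes had 6 lower, 0 higher and 7 uncalled among 13, and their median log2 fold change was -0.33. The enzymes and transporters had 6 lower, 2 higher and 11 uncalled among 19, and their median was -0.20. Of all genes tested 37.6% were called, 17.5% lower and 20.2% higher, around a median of 0.01. AKO and WT libraries did not overlap for any of the 12 genes that fell or the 2 that rose. Among all 32 genes, 17 had every AKO library below every WT library and 5 had every AKO library above, against 24.4% and 25.7% of all genes tested. The calls for Pex19, Pex13, Pex11a, Slc27a2, Abcd3, Hsd17b4, Scp2 and Pecr held in each of 15 other ways of processing the counts. Fewer Pex genes were called lower, 3 in each case, without AKO replicate 3 and when no factor beyond library totals was applied, and both times these were Pex13, Pex19 and Pex11a. Library totals alone moved the median of all genes to 0.10 and the share of calls that were higher to 65.2%, in place of 53.6%. In whole tissue, fewer cells of a type and less RNA per cell cannot be told apart.

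Markers of several cell types moved along with these genes. Of 13 brown adipocyte markers, 10 fell and 1 rose, and they summed to 12088 to 18542 CPM in AKO and 29860 to 32484 CPM in WT. Ucp1, with means of 4654 CPM in AKO and 14912 CPM in WT, is a large part of these sums. Adipoq, the gene whose promoter drives the Cre, changed by -0.58 ± 0.18. All 14 macrophage markers rose, with sums of 970 to 1372 CPM in AKO and 237 to 294 CPM in WT, and Trem2 was at 0 in WT replicates 2 and 3. All 12 skeletal muscle markers rose too, with sums of 1045 to 2146 CPM in AKO and 97.3 to 499 CPM in WT, and 6 of 8 fibroblast and progenitor markers rose, with sums of 1634 to 2061 CPM in AKO and 590 to 923 CPM in WT. White adipocyte markers rose in 3 of 5 tested, Lep (2.66), Sncg (2.46) and Nnat (1.08), with sums of 145 to 195 CPM in AKO and 44.5 to 52.6 CPM in WT, and Tcf21 was at 0 throughout. Of 8 endothelial markers 2 fell and 1 rose (sums of 747 to 911 CPM in AKO and 906 to 969 CPM in WT). Of 5 erythroid markers 2 rose (682 to 800.5 CPM in AKO and 331 to 707 CPM in WT), and of 5 Schwann cell markers 2 fell (77.1 to 106 CPM in AKO and 129.9 to 178 CPM in WT). The part of these cells in the changes of the peroxisomal genes was not tested.

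**Figure D1:**
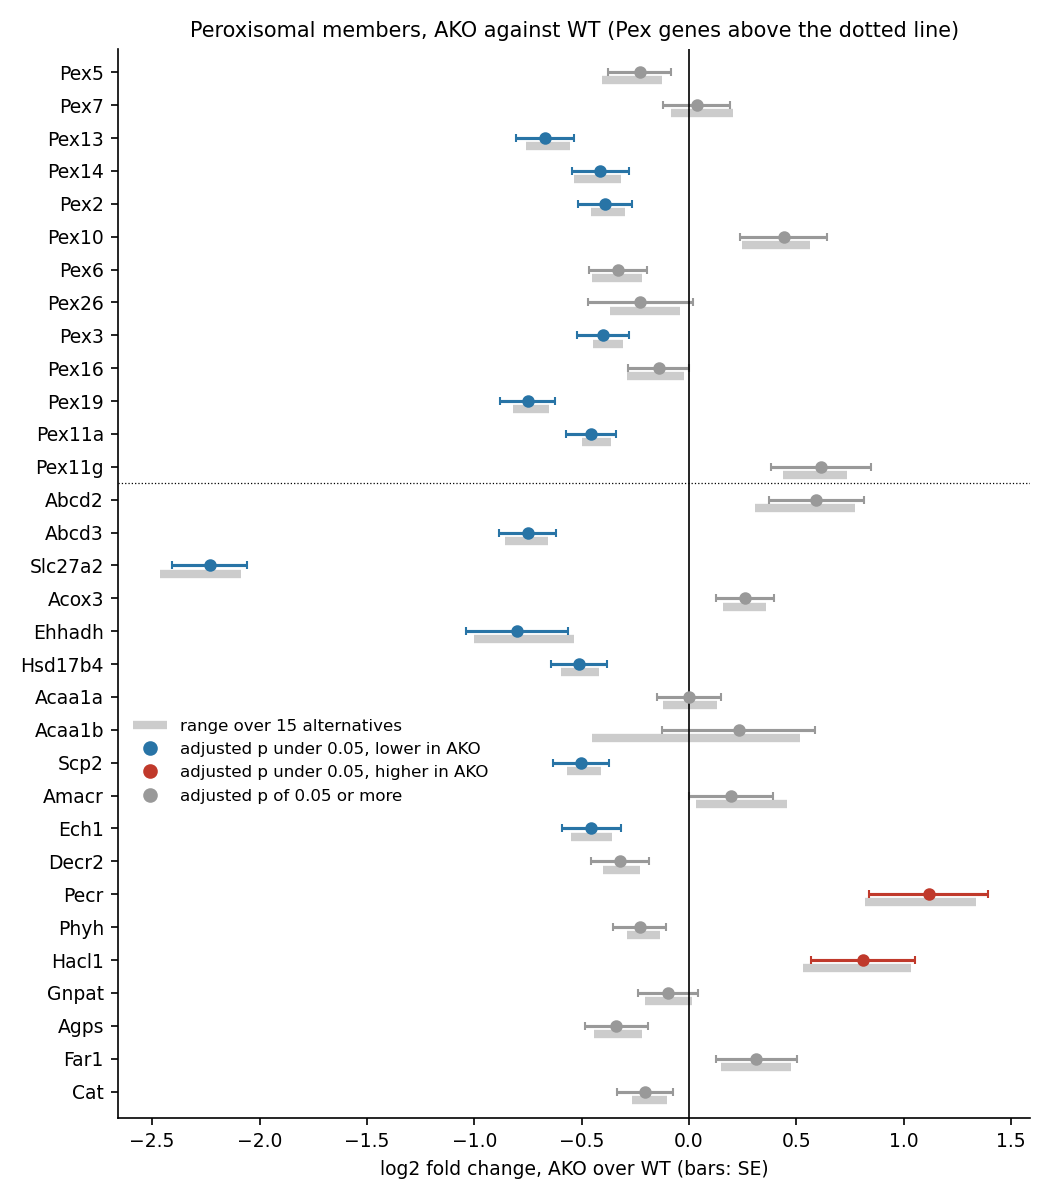
Log2 fold change of AKO over WT for the 32 genes, with Pex genes above the dotted line, in order of role. Points are edgeR estimates with SE (3 AKO and 3 WT libraries), coloured by call, and the grey bar under each point spans the values of 15 alternatives. Slc27a2 lies far to the left of the other genes, at -2.23, and Pecr farthest to the right, at 1.12.

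Both docking proteins of the import pore fell. Pex13 was at 133, 141 and 106 CPM in AKO and 191, 205 and 208 CPM in WT (-0.67 ± 0.13, edgeR adjusted p = 0.00193). Pex14, its partner, was at 102, 77.4 and 82.1 CPM in AKO, against 118, 123 and 106 CPM in WT (-0.41 ± 0.13, edgeR adjusted p = 0.0290). The groups were well apart for Pex13, whereas the highest AKO library lay just under the lowest WT library for Pex14. The call for Pex14 was lost without AKO replicate 2 or 3 or WT replicate 1 or 2, at -0.34, -0.37, -0.40 and -0.37, and with library totals only, at -0.32. An antisense transcript covers 28.3% of the exonic bases of Pex14, and reads of the pair cannot be told apart without the strand setting of the counting. The same holds, over shorter stretches, for Slc27a2 (11.2% of exonic bases under a gene on the other strand), Pecr (11.5%), Acaa1b (11.4%), Pex16 (7.15%), Acaa1a (6.57%), Acox3 (6.08%) and Pex3 (5.25%), and for under 3% of Gnpat, Hacl1, Far1 and Pex13.

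The receptors that carry cargo to this pore did not pass the test. Pex5, which binds the C-terminal import signal of most matrix enzymes, was at 169, 124.5 and 117 CPM in AKO and 171, 160.3 and 151 CPM in WT (-0.23 ± 0.15). AKO replicate 1 lay within the WT range and the other AKO libraries below it, and without AKO replicate 1 Pex5 was called, at -0.41 (edgeR adjusted p = 0.0192). Pex7, the receptor of the rarer N-terminal signal used by thiolase and Agps, was at 31.7, 29.5 and 29.2 CPM in AKO and 24.3, 36.3 and 27.6 CPM in WT, with all AKO values inside the WT range (0.04 ± 0.16).

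After delivery, receptors are tagged by a ubiquitin ligase ring and pulled out of the membrane. Pex2, a ring subunit, fell to 32.5, 34.7 and 28.8 CPM in AKO, against 41.9, 42.5 and 41.5 CPM in WT (-0.39 ± 0.13, edgeR adjusted p = 0.0274). Pex2 lost its call without AKO replicate 3, at -0.32, without WT replicate 1, 2 or 3, at -0.39, -0.39 and -0.41, and with library totals only, at -0.30. Pex10, another subunit of the same ring, was at 13.0, 13.1 and 13.4 CPM in AKO and 6.96, 11.3 and 10.8 CPM in WT, every AKO library above every WT library, but did not pass (0.44 ± 0.20, edgeR adjusted p = 0.105). Pex6, an ATPase that extracts the receptors, was at 86.4, 90.2 and 87.5 CPM in AKO and 91.6, 129 and 112 CPM in WT (-0.33 ± 0.14, edgeR adjusted p = 0.0737). It was called without WT replicate 1, the WT library nearest to AKO, at -0.45, and without a low-count filter, at -0.37. Pex26, which anchors the ATPase to the membrane, had the lowest level per length of the set. It was at 6.24, 4.57 and 6.98 CPM in AKO and 6.48, 5.60 and 8.74 CPM in WT, which overlapped, and did not pass (-0.23 ± 0.24).

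Of the 3 genes that bring membrane proteins into the organelle, 2 fell. Pex19, the cytosolic chaperone of peroxisomal membrane proteins, was at 204, 167 and 187 CPM in AKO and 294, 346 and 299 CPM in WT (-0.75 ± 0.13, edgeR adjusted p = 0.000755). This was the deepest fall among the Pex genes, and the groups were far apart. Pex3, the docking factor for Pex19, was at 45.2, 45.4 and 41.6 CPM in AKO and 64.3, 55.1 and 55.0 CPM in WT (-0.40 ± 0.12, edgeR adjusted p = 0.0215), and lost its call without AKO replicate 3 (-0.36), without WT replicate 1 (-0.32) and with library totals only (-0.31). Pex16, which recruits Pex3, was at 68.3, 54.8 and 47.5 CPM in AKO, a spread that covered the WT values of 62.1, 66.2 and 59.8 CPM (-0.14 ± 0.14).

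The PEX11 proteins elongate and divide peroxisomes, and the 2 forms examined stood on opposite sides of 0. Pex11a, the form induced by PPARα, was at 54.0, 50.8 and 47.7 CPM in AKO and 66.8, 73.0 and 69.8 CPM in WT (-0.46 ± 0.12, edgeR adjusted p = 0.00845). Pex11g was at 7.20, 7.11 and 8.54 CPM in AKO and 3.72, 5.35 and 5.87 CPM in WT, without overlap (0.61 ± 0.23, edgeR adjusted p = 0.0519). Its adjusted p lay close to the threshold, and 6 of the 15 alternatives called it higher, at 0.63 to 0.71. Pex11a lies on chromosome 7 (79735957 to 79743131, GRCm38) 3052 bases from Plin1, the lipid droplet coat protein perilipin 1, and a PPAR response element between both genes is known in the mouse. Plin1 was at 809, 643 and 618 CPM in AKO and 788, 984 and 903 CPM in WT, with AKO replicate 1 inside the WT range, and did not pass (-0.37 ± 0.15, edgeR adjusted p = 0.0611).

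**Figure D2:**
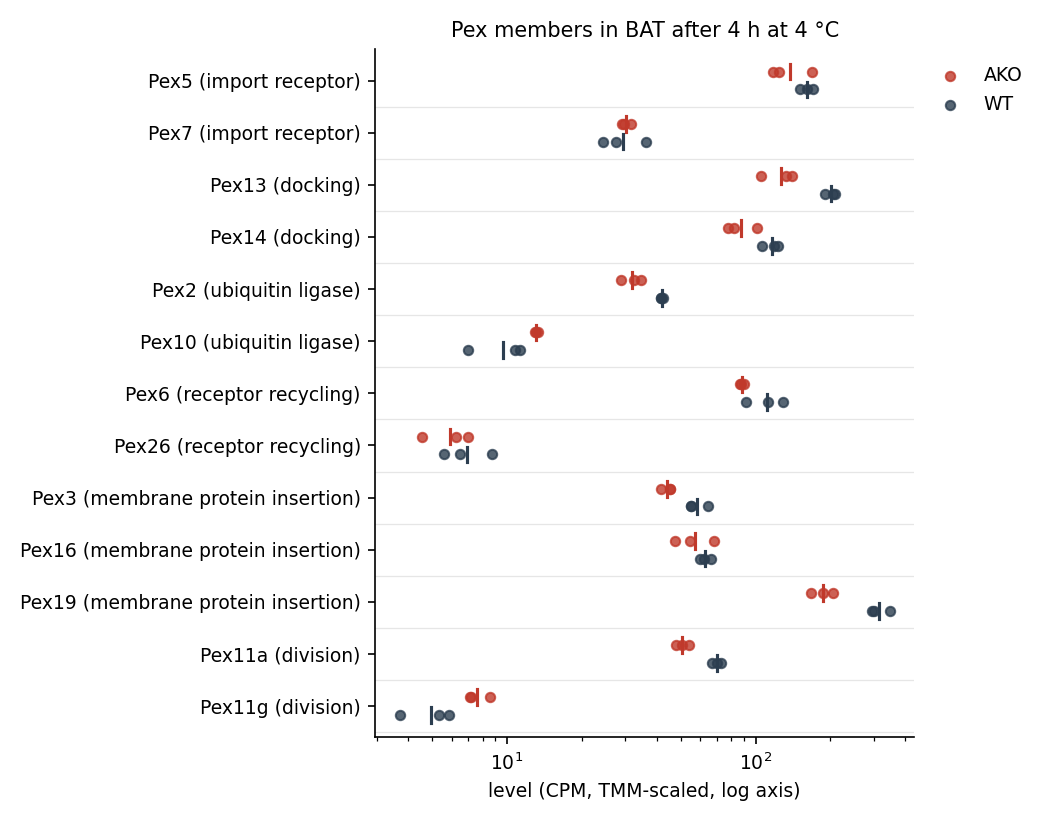
Level of the 13 Pex genes in each library (CPM, log axis), with AKO in red above WT in dark blue and a tick at each group's mean (n = 3 per group). The AKO points of Pex2, Pex3, Pex6, Pex11a, Pex13, Pex14 and Pex19 lie to the left of their WT points without overlap. Those of Pex10 and Pex11g lie to the right.

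Fatty acids reach the peroxisome as CoA esters, and the genes for their activation and entry held the largest fall of the set. Slc27a2 (chromosome 2, 126553024 to 126588243) was at 142, 99.1 and 86.3 CPM in AKO and 532, 525 and 483 CPM in WT. The AKO mean of 109 ± 29.2 CPM (SD, n = 3) was 21.3% of the WT mean of 513 ± 26.6 CPM (SD, n = 3), or -2.23 ± 0.17 as a log2 fold change (edgeR adjusted p = 4.60e-06). In order of fold change this was the gene at place 23 from the lowest of all 13007. Abcd3, the transporter of branched and long-chain acyl-CoA, was at 149.9, 162 and 147 CPM in AKO and 219, 275 and 278 CPM in WT (-0.75 ± 0.13, edgeR adjusted p = 0.000802). The study lists Slc27a2 and Abcd3 among genes lower in the BAT of both its AKO mice and the Ebf2 knockout mice of an outside dataset, so neither direction is independent evidence. Abcd2, a related transporter of very long-chain acyl-CoA, was at 18.4, 27.6 and 14.9 CPM in AKO and 11.3, 13.2 and 16.0 CPM in WT, with AKO replicate 3 inside the WT range (0.59 ± 0.22, edgeR adjusted p = 0.0518). Abcd2 was called higher in 6 of the 15 alternatives, at 0.56 to 0.77.

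The promoters of Slc27a2 and Scp2, which fell, and of Pecr and Hacl1, the genes that rose, are shown because PPAR and other nuclear receptors bind repeats of a short core. Among the genes that fell and had a sequence, only Slc27a2 and Scp2 held this core. Cat and Pex11g, which did not pass, held it too and are not shown. Each line is the 250 bases before an annotated start in RefSeq (GRCm38.p6), written 5′ to 3′ on the strand of the gene. Capitals mark this core, AGGTCA, or its reverse complement TGACCT.
Slc27a2, chr2:126552774-126553023, plus strand: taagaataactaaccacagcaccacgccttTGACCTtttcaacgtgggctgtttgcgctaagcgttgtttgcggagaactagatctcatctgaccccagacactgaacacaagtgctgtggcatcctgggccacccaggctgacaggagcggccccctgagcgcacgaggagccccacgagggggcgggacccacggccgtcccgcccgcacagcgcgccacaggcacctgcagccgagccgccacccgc
Scp2, chr4:108118548-108118797, minus strand: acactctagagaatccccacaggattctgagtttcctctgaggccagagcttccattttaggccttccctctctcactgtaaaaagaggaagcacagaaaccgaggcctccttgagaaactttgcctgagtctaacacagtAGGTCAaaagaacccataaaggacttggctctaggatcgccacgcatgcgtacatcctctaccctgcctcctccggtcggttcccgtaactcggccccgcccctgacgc
Pecr, chr1:72284322-72284571, minus strand: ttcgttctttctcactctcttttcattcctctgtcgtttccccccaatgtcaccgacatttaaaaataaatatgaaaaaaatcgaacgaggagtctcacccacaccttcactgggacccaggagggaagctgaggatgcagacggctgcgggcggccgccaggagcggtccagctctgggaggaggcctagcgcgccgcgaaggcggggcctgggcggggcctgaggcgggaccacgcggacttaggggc
Hacl1, chr14:31640966-31641215, minus strand: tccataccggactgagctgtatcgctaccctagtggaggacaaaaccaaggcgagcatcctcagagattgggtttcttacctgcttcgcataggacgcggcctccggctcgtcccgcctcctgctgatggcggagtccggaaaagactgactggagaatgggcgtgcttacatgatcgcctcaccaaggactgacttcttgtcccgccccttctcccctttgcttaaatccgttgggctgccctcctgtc
The core began 220 bases before the start of Slc27a2, where it is written in reverse, and 109 bases before the start used for Scp2. Neither Pecr nor Hacl1 held it. The window of Scp2 lies inside the gene, which spans 108043830 to 108144971, so its start is an internal one. Such windows were found for 27 of the 32 genes. The core stood in those of 2 of 9 genes that fell, 0 of 2 that rose and 2 of 16 that did not pass, against 14.0% of 32851 windows of the same length and 15.8% of the 27025 genes they belong to. The full PPAR element AGGTCANAGGTCA, read on both strands and containing the core, was in none of the 27 and in 0.0335% of all windows. The CCAAT box, read on both strands, was in 1 of 9 genes that fell, both that rose and 8 of 16 that did not pass, against 33.8% of all windows and 37.5% of all genes with one. A match of letters is not a site of binding, and no match says only that these letters are not in this window.

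Of 6 β-oxidation genes, 3 fell. Ehhadh, the L-bifunctional enzyme that takes consecutive steps of the classical PPARα-inducible pathway, was at 101, 90.8 and 47.7 CPM in AKO and 162, 152 and 104 CPM in WT (-0.80 ± 0.24, edgeR adjusted p = 0.0185). Its libraries were widely spread in both groups, and the highest AKO library came within a few CPM of the lowest WT library. Without WT replicate 1 or 2, the call was lost, at -0.68 and -0.74. Hsd17b4, the D-bifunctional enzyme needed for branched and very long-chain substrates, was at 215, 192 and 177 CPM in AKO and 245, 296 and 292 CPM in WT (-0.51 ± 0.13, edgeR adjusted p = 0.00868). Scp2, which encodes both a thiolase for branched chains and sterol carrier protein 2, was at 419, 426 and 348 CPM in AKO and 512, 589 and 591 CPM in WT (-0.50 ± 0.13, edgeR adjusted p = 0.00960). Both fell without overlap between groups. An annotated pseudogene, Scp2-ps2, shares 37.5% of the stretches of 50 bases of Scp2, so its counts are uncertain.

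The remaining β-oxidation genes did not pass. Acox3, an oxidase of branched acyl-CoA, was at 40.2, 40.1 and 41.6 CPM in AKO and 28.9, 38.2 and 34.7 CPM in WT, each AKO library above each WT library (0.26 ± 0.14, edgeR adjusted p = 0.147). The thiolase gene Acaa1a was at 71.7, 81.05 and 57.2 CPM in AKO and 61.4, 79.6 and 69.0 CPM in WT, and both means were 70.0 CPM (SD 12.0 in AKO and 9.13 in WT, n = 3 each). Acaa1b, a second thiolase gene on the same chromosome, was at 52.8, 20.5 and 16.9 CPM in AKO and 16.7, 28.3 and 32.5 CPM in WT (0.23 ± 0.36). AKO replicate 1 alone put the AKO mean above the WT mean, and without it the value was -0.45 (edgeR adjusted p = 0.164). Both thiolase transcripts share 583 stretches of 50 bases, 26.7% of those of Acaa1a and 35.5% of those of Acaa1b, and how reads common to both were assigned is not given, so both values are uncertain.

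The auxiliary enzymes reshape double bonds and methyl branches so that β-oxidation can proceed, and here the directions split. Ech1, an isomerase of peroxisomes and mitochondria and the gene of highest level per length in the set, was at 769, 735 and 683 CPM in AKO and 864, 1137 and 998 CPM in WT (-0.46 ± 0.14, edgeR adjusted p = 0.0195). Its call was lost without AKO replicate 3 (-0.40), WT replicate 2 (-0.36) or WT replicate 3 (-0.47). Pecr, a reductase of trans-2-enoyl-CoA (chromosome 1, 72259172 to 72284321), was at 13.6, 16.4 and 10.8 CPM in AKO and 3.48, 7.26 and 8.20 CPM in WT, without overlap (1.12 ± 0.28, edgeR adjusted p = 0.00717). Pecr had the largest rise of the set, on low counts, 76 to 129 per AKO library and 29 to 60 per WT library. Decr2, the peroxisomal dienoyl-CoA reductase, was at 33.7, 36.3 and 29.9 CPM in AKO and 37.1, 46.1 and 41.9 CPM in WT, each AKO library below each WT library, and did not pass (-0.32 ± 0.14, edgeR adjusted p = 0.0801). Amacr, the racemase of branched acyl-CoA, was at 21.7, 26.3 and 26.9 CPM in AKO, all within the WT range, and at 16.5, 29.2 and 19.7 CPM in WT (0.20 ± 0.20).

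α-oxidation takes a carbon off phytanic acid, whose methyl branch blocks β-oxidation. Phyh, which hydroxylates phytanoyl-CoA, was at 476, 539 and 486 CPM in AKO and 561, 634 and 565 CPM in WT, each AKO library below each WT library, without passing the test (-0.23 ± 0.12, edgeR adjusted p = 0.164). Hacl1, the lyase that cleaves its product, rose to 16.3, 28.3 and 18.5 CPM in AKO, against 11.6, 15.5 and 8.74 CPM in WT (0.81 ± 0.24, edgeR adjusted p = 0.0186). The lowest AKO library of Hacl1 lay close to the highest WT library, and the call was lost without AKO replicate 2 (0.53), WT replicate 1 (0.79) or WT replicate 3 (0.62). A protein-coding model on the same strand, Gm49387, shares 51.9% of the stretches of 50 bases of Hacl1, so its counts are uncertain.

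Ether lipid genes did not pass. Gnpat, the acyltransferase that begins the pathway, was at 165, 196 and 157 CPM in AKO and 164, 214 and 176 CPM in WT (-0.10 ± 0.14). A processed transcript on the same strand, Gm16163, shares 7.75% of the stretches of 50 bases of Gnpat, so part of its counts is uncertain. Agps, which puts in the ether bond, was at 23.0, 31.1 and 28.2 CPM in AKO and 35.0, 31.6 and 37.4 CPM in WT (-0.34 ± 0.15, edgeR adjusted p = 0.0868), with AKO replicate 2 just under the lowest WT library. Without AKO replicate 2 it was called, at -0.44. Far1, which supplies the fatty alcohol, was at 14.9, 17.8 and 17.4 CPM in AKO and 13.4, 10.3 and 16.5 CPM in WT (0.31 ± 0.19). Cat, which encodes catalase, was at 544, 579.8 and 546 CPM in AKO and 584, 737 and 603 CPM in WT (-0.20 ± 0.13, edgeR adjusted p = 0.240), with the lowest WT library only slightly above the AKO range.

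**Figure D3:**
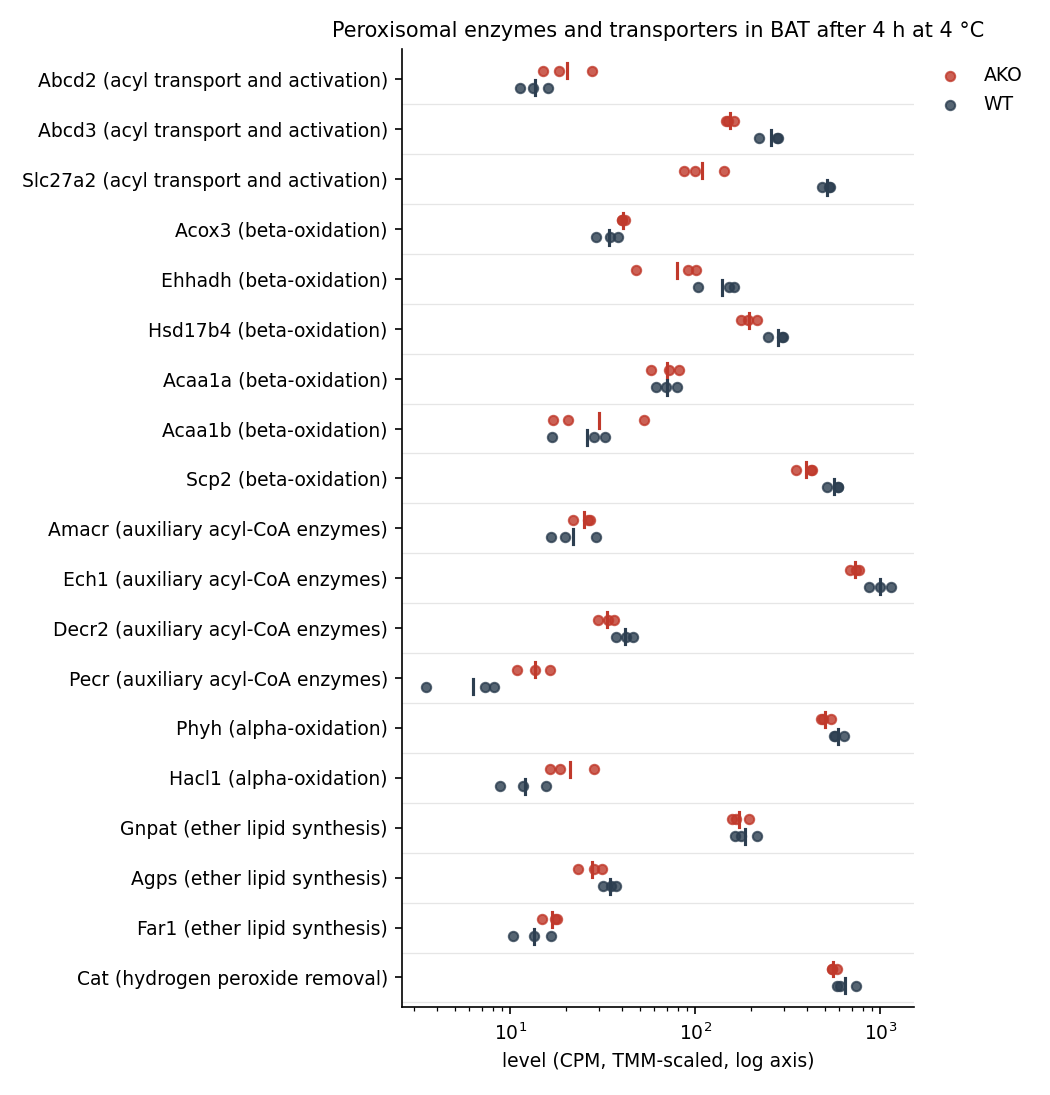
Level of the 19 enzyme and transporter genes in each library (CPM, log axis), with AKO in red above WT in dark blue and a tick at each group's mean (n = 3 per group). Slc27a2 shows the widest gap between groups, at 86.3 to 142 CPM in AKO and 483 to 532 CPM in WT, and Acaa1b has 1 AKO library apart from the rest.

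Per kilobase of exon, Ech1, Phyh, Cat and Scp2 had the highest levels in both groups, at 319, 264, 213 and 114 CPM per kilobase in AKO and 438, 309.8, 245.5 and 162 CPM per kilobase in WT. Slc27a2 came next in WT, at 137 ± 7.09 CPM per kilobase (SD, n = 3). In AKO it stood at 29.1 ± 7.78 CPM per kilobase (SD, n = 3) at place 10, among Pex16, Pex13 and Ehhadh, whose values lay within its spread. Summed over the 13 Pex genes, the level was 803 to 952 CPM in AKO and 1142 to 1258 CPM in WT, so that the AKO mean was 73.0% of the WT mean. The 19 enzymes summed to 2941 to 3345.5 CPM in AKO and 4079 to 4858 CPM in WT, 71.9% in the means. Slc27a2, with means of 109 CPM in AKO and 513 CPM in WT, is part of that sum. The median log2 fold change of the 19 was -0.20.

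The direction of change went with the level of a gene, in the set and beyond it. Of the 3 genes of the set with a mean under 10 CPM over the 6 libraries and the 7 at 10 to 30 CPM, 0 fell, and both genes that rose were among them. At 30 to 100 CPM, 3 of 9 fell. Among all genes tested, those under 10 CPM had a median of 0.27 with 7.02% called lower and 26.8% higher, and those at 10 to 30 CPM a median of 0.04 with 14.3% lower and 21.2% higher. At 30 to 100 CPM 26.2% of all genes were lower (median -0.13), whereas those at 100 to 300 CPM had a median of -0.24 with 38.1% called lower. Of the 8 genes of the set in that last range, 6 fell, with a median of -0.59. At 300 CPM and over, 3 of 5 fell (median -0.46), against 43.1% of all genes at that level (median -0.32).

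**Figure D4:**
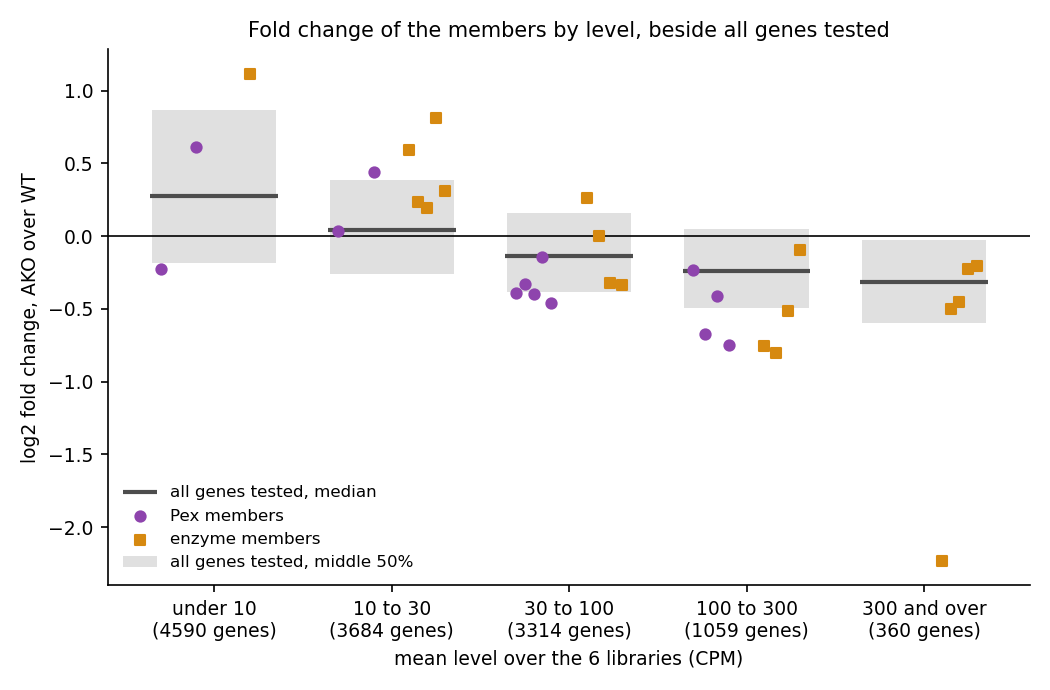
Log2 fold change of AKO over WT against mean level over the 6 libraries. Grey bars span the quartiles of all genes tested in each range of level and the dark line is their median, which goes down from 0.27 under 10 CPM to -0.32 at 300 CPM and over, while circles are Pex genes and squares are enzymes and transporters.

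For pairs of related genes, the share of counts taken by either gene within a library does not depend on scaling. Abcd2 took 10.9%, 14.55% and 9.23% of the counts of Abcd2 and Abcd3 together in AKO, and 4.89%, 4.59% and 5.43% in WT. The 95% exact (Clopper-Pearson) intervals of these shares lay between 7.61% and 16.45% in AKO and between 3.77% and 6.47% in WT, and they cover counting error only. Pex11g took 11.8%, 12.3% and 15.2% of the counts of Pex11g and Pex11a in AKO, and 5.27%, 6.83% and 7.76% in WT. For both pairs each AKO library was above each WT library, and p was 0.10 in an exact permutation test, two-sided, which cannot go lower with 3 libraries a group (0.20 after Benjamini-Hochberg adjustment over 4 pairs). The other 2 pairs overlapped between groups. Acaa1b took 42.4%, 20.15% and 22.8% of the thiolase counts in AKO and 21.35%, 26.2% and 32.03% in WT (exact two-sided permutation p = 0.90, adjusted 0.90). Ehhadh took 31.9%, 32.1% and 21.3% of the counts of Ehhadh and Hsd17b4 in AKO and 39.8%, 34.0% and 26.2% in WT (exact two-sided permutation p = 0.40, adjusted 0.533).

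**Figure D5:**
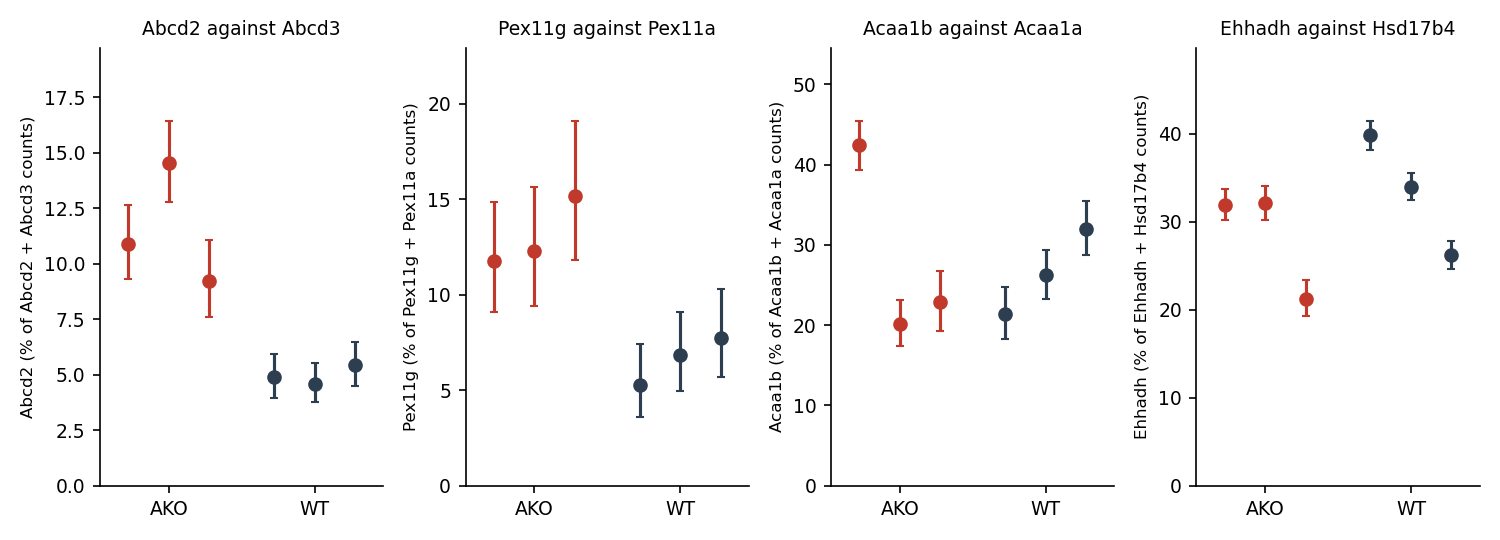
Share of counts taken by the first gene of each of 4 pairs, in percent of both genes, for each library, with AKO in red left of WT in dark blue and 95% exact binomial intervals. The AKO shares of Abcd2, 9.23% to 14.55%, and of Pex11g, 11.8% to 15.2%, lie above all WT shares, while those of Acaa1b and Ehhadh overlap.

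A wider list held 56 other peroxisomal genes. Of the 48 with enough counts to be tested, 18 were lower, 4 higher and 26 uncalled, around a median of -0.35, against 17.5% lower and 20.2% higher over all genes. Slc25a17, the peroxisomal carrier of CoA and nucleotides, was at 118, 108 and 110 CPM in AKO and 240, 239 and 229 CPM in WT (-1.07 ± 0.12, edgeR adjusted p = 3.28e-05). Its groups were tight and far apart. The thioesterase genes Acot4 and Acot8, which release fatty acids or short acids from CoA, changed by -1.58 ± 0.20 and -0.89 ± 0.15. Tysnd1, the protease that trims imported enzymes, changed by -0.80 ± 0.12 and Tmem135, a membrane protein of peroxisomes, by -0.73 ± 0.12. Acox2, an oxidase of branched acyl-CoA and bile acid intermediates, rose, at 3.36, 3.43 and 6.12 CPM in AKO and 0.48, 1.02 and 0.55 CPM in WT (2.62 ± 0.41, edgeR adjusted p = 0.000377). Slc25a17 and Acot8 also belong to that list of the study, so their direction is not independent evidence either.

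Mitochondrial β-oxidation, the pathway that takes over the shortened chains, showed 9 of 17 genes lower, 0 higher and 8 not passing, with a median of -0.40. Etfdh, Slc25a20 and Acads changed by -1.02, -0.76 and -0.72, and all 3 stand in the same list of the study. The summed level in AKO was 72.6% of WT in the means. Whether the peroxisomal genes differ from these was not tested. Of 7 genes for PPAR receptors, their partners and coactivators, Rxra (-0.45) and Ppargc1a (-0.74) fell, Pparg (0.48) rose and 4 did not pass. The groups overlapped for Ppargc1a, with AKO replicate 2 at 639 CPM and WT replicate 3 at 580 CPM. Ppara, among those that did not pass, was at 235, 206 and 228 CPM in AKO and 236, 321 and 251 CPM in WT (-0.27 ± 0.14).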

How the data were processed

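RNA was measured in BAT of 3 AKO and 3 WT mice after 4 h at 4 °C. The deposited values were raw counts per gene, under a name that includes htseq-count. The authors' methods name STAR and HTSeq, and the notes that the submitters left on processing list DESeq2 1.4.5, RSEM 1.3.1, Bowtie2 and mm10 with no roles. Annotation release, strand setting and handling of shared reads: not given in the sources used here.

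Counts were tested with edgeR 4.0.16 in R 4.3.3 (TMM factors, filterByExpr, quasi-likelihood F test with genotype only, Benjamini-Hochberg adjustment, threshold 0.05). Of 35976 genes, 22147 had a count and 13007 were tested. Genes left out held 0.226% of counts. SE was the absolute fold change divided by the square root of F. Totals of 6540619 to 8461685 counts limit the precision of genes at a few CPM. Shares have exact 95% intervals.

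Alternatives were other scaling factors, library totals only, omission of mitochondrially encoded genes, DESeq2 1.42.0, limma 3.58.1 (voom), other low-count filters, a replicate block and omission of each replicate. Levels per kilobase used exon unions of GENCODE M21, and shared stretches of 50 bases came from its transcripts. Promoters were read from RefSeq GRCm38.p6, which held 27 of the 32 genes. Abcd2, Amacr, Hsd17b4, Pex2 and Pex19 had no entry.

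All 32 genes of the set were named. From the list of other peroxisomal genes up to 6, and from each other list up to 3, called genes of lowest p could be named, besides Cars2 and Ucp1. Adipoq, Plin1, Ppara, Trem2 and Tcf21 stand outside this rule, and so do the genes under other observations. The set, the lists and the tests were chosen with earlier results of these data known.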

Additional observations from a re-analysis of the deposited data

How the results depend on the processing

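Over 15 alternatives, 428 of 480 fold changes of the 32 genes kept their direction and their side of the threshold, 21 lost a call, 16 gained one and 15 reversed. The count of Pex genes called lower, 6, became 3 with library totals only and ran from 3 (without AKO replicate 3) to 7 when 1 replicate was left out. The count of Pex genes called higher, 0, became 1, Pex11g in each case, with upper-quartile factors, library totals only, omission of mitochondrially encoded genes, limma-voom or a mean of at least 5 CPM. It was also 1 with the replicate block, where Pex11g was at 0.63 (adjusted p = 0.0443), and stayed 0 when 1 replicate was left out. Enzymes called lower ran from 4 (without WT replicate 2) to 7, and enzymes called higher, 2, from 1 (without AKO replicate 2, WT replicate 1 or WT replicate 3) to 3. Other peroxisomal genes called higher ran from 2 to 5. The causes of these shifts were not tested.

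Every reversal was in a gene that was not called. Without a low-count filter Pex7 was at -0.0019 and Acaa1a at -0.035. Acaa1a was at -0.0057 with RLE factors, -0.0059 with DESeq2, -0.0047 with limma-voom and -0.0039 with the replicate block. When 1 replicate was left out, Pex7 ran from -0.084 to 0.21, Acaa1a from -0.12 to 0.13, Acaa1b from -0.45 to 0.52 and Gnpat from -0.20 to 0.013.

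Deviations of AKO and WT libraries with the same replicate number correlated at -0.02, 0.01 and 0.17. So few libraries cannot settle whether the numbers pair the mice, and the labels do not say. The replicate block called 4926 genes in place of 4897, and not every library correlated best with its own number. Genes at a few CPM, such as Pex26, Pex11g and Pecr, rest on few counts, and their SE was 0.23 or more.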

Other observations

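Genes in this paragraph were chosen after their values were seen. Besides Acox2, the other peroxisomal genes that rose were Crot, Mvk and Ddo. Crot, the carnitine octanoyltransferase that moves shortened chains out of peroxisomes, was at 19.2, 29.3 and 26.3 CPM in AKO and 8.51, 11.8 and 13.5 CPM in WT (1.15 ± 0.21). Crat, the carnitine acetyltransferase of peroxisomes and mitochondria, fell to 553, 481 and 452 CPM in AKO, against 721, 918 and 860.1 CPM in WT (-0.75 ± 0.14). Within a library these related enzymes thus stood on opposite sides of WT, and the difference between their changes was not tested. Mvk, the mevalonate kinase of sterol synthesis, changed by 0.56 ± 0.19 and Ddo, the D-aspartate oxidase, by 0.41 ± 0.12.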
